A study of Macaca mulatta with 28 samples.

Results

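Ionotropic and metabotropic glutamate receptors, the vesicular transporters that load glutamate, and the scaffold and signaling proteins of the postsynaptic density were examined in ventral tegmental area (VTA) tissue of rhesus macaques after chronic voluntary alcohol drinking. The set holds 41 of the 16885 transcripts with a gene symbol in the count table. Members are a list of gene names that uses no measured value: 4 AMPA receptor subunits (GRIA), 6 NMDA receptor subunits (GRIN), 5 kainate receptor subunits (GRIK), the delta receptor subunit GRID1, 6 metabotropic receptors (GRM), 3 vesicular glutamate transporters and the plasma membrane transporter SLC1A1, 10 scaffold proteins (HOMER, DLG and SHANK), 3 TARP auxiliary subunits (CACNG) and 2 subunits of Ca2+/calmodulin-dependent kinase II (CAMK2).

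VTA tissue came from 28 male, wild type rhesus macaques, each with 1 library of bulk tissue RNA. The 17 drinkers were induced to drink ethanol by a schedule that provokes polydipsia, then had open access to ethanol for most of each day over about a year, and later went through repeated months of abstinence separated by renewed access, with tissue taken after the last abstinence. The 11 controls were yoked to the drinkers for calories or housed alongside them without ethanol. By intake the labels place 1 drinker in the Low, 2 in the Binge, 5 in the Heavy and 9 in the Very Heavy category. The study's source data give the cohort of each drinker, and each control was placed by the cohort of the drinkers or recordings it is listed with. On this basis cohort 1 held 8 controls, 1 Low, 4 Heavy and 3 Very Heavy drinkers, and cohort 2 held 3 controls, 2 Binge, 1 Heavy and 6 Very Heavy drinkers. Drinking category and cohort were therefore unevenly crossed.

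Fast glutamate transmission runs through tetrameric AMPA receptors, which carry the early current, and NMDA receptors, which need the GluN1 subunit and take their kinetics from the GluN2 subunits. Metabotropic receptors of group I (GRM5) couple to calcium release, and those of groups II and III (GRM2, GRM3, GRM4, GRM7, GRM8) mostly sit on terminals and restrain release. The postsynaptic density holds these receptors in place through DLG, SHANK and HOMER scaffolds. In the VTA, glutamate inputs drive burst firing of dopamine neurons, plasticity of AMPA and NMDA receptors on those neurons is a well-studied response to drugs of abuse, and some VTA neurons themselves release glutamate through VGLUT2.

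The libraries held 12303914 to 27338669 estimated counts over transcripts with a symbol, and mitochondrially encoded transcripts took 36.4% to 60.6% of them. All 10 dopamine neuron markers were in the table, and none was at 0 throughout. Their summed level ran from 33.9 to 1698 CPM (counts scaled to the library total), with a median of 240.1, so the share of dopamine neuron RNA differed widely between punches. Oligodendrocyte markers summed to between 11540 and 21190 CPM and serotonin neuron markers to between 0 and 10.4 CPM. A value of bulk tissue cannot tell fewer cells of a type from less RNA per cell. The table lists 1 Ensembl transcript per symbol, so a member's value is the count of that transcript and not of the whole gene. Of the 41 members, 25 had counts in all 28 animals, 4 were at 0 in 1 animal (DLG2, DLG3, GRIN2C and CAMK2B), and 12 were at 0 in 3 or more. Zeros were as frequent elsewhere: among the 13769 tested transcripts, 4212 (30.6%) were at 0 in 3 or more animals, as were 10 of the 39 members that passed the filter (25.6%). GRIK2, a kainate receptor subunit, was listed at 0 in all 28 animals, and DLG1 (SAP97) was listed at 0 in 26 and had 24 counts in Heavy 2 and 15 in Heavy 5. Neither passed the filter of at least 5 counts in at least 3 animals.

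Levels are given per kilobase of coding sequence so that members can be set side by side. Counts cover whole transcripts, and the coding part differs, as in CAMK2A (1467 of 4894 bases) and GRID1 (3027 of 3157). The order of members was not tested with transcript length. By coding length the median over 28 animals was highest for GRIN1, the obligatory NMDA receptor subunit. It was 94.3 CPM per kb (range 54.6 to 145). SLC17A6 (VGLUT2) followed with a median of 76.2 CPM per kb, but its range of 17.0 to 212, a 12.5-fold span, took in the whole range of GRIN1. GRIA1 (45.3 CPM per kb), CAMK2A (44.6), CACNG2 (31.7), CACNG3 (31.3), GRID1 (24.98), GRIK5 (22.2) and SHANK1 (19.97) came next, and neighbours in this order overlapped across animals. The other 25 members with a median above 0 had medians of 8.91 CPM per kb (GRM5) down to 0.363 (SLC1A1). Spread between animals differed between members: GRIK5 spanned 1.59-fold and GRID1 1.61-fold from lowest to highest animal, whereas GRIA4 spanned 27.5-fold, from 2.14 to 59.0 CPM in cohort 1 and from 12.7 to 28.2 CPM in cohort 2.

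**Figure D1:**
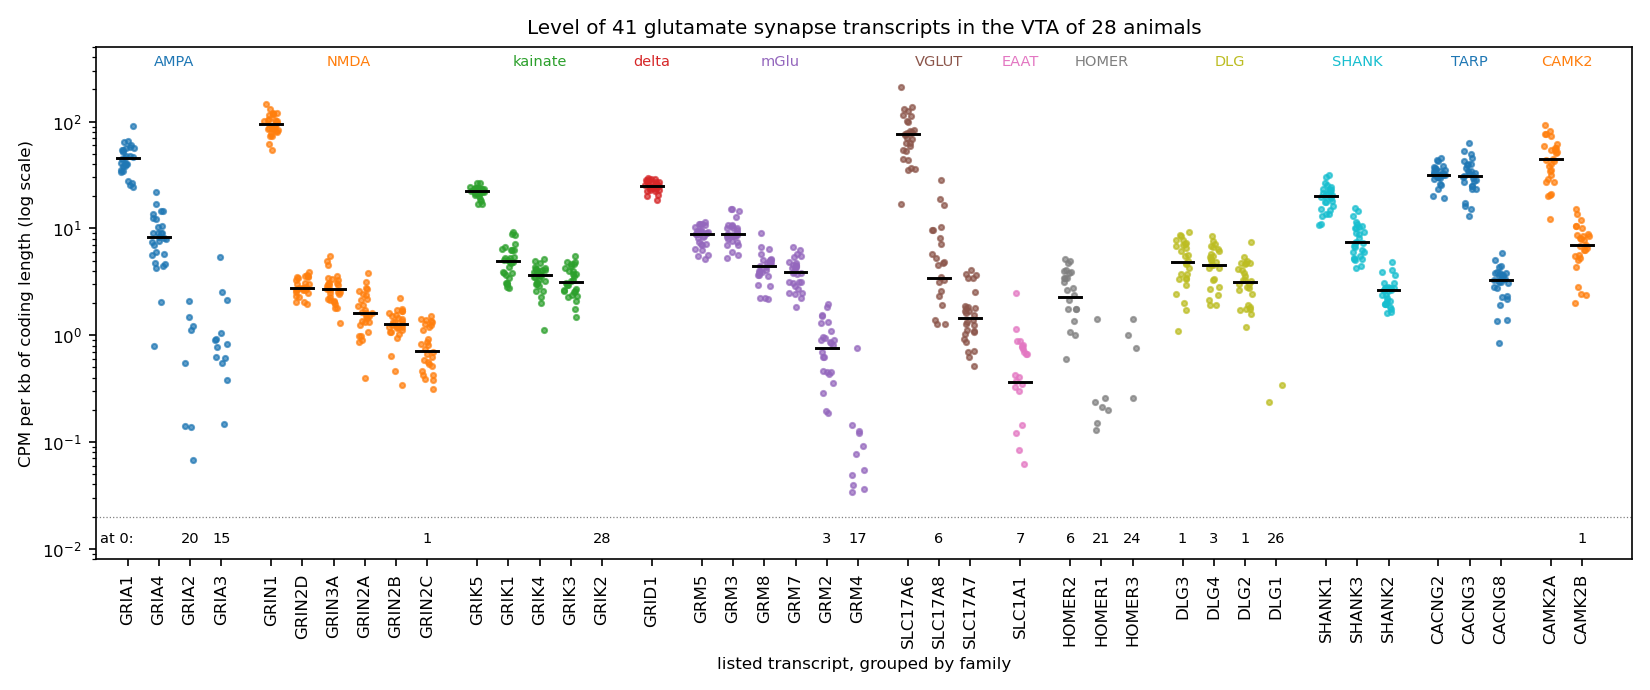
Level of each member in each of the 28 animals (points, CPM per kb of coding length on a log axis), grouped and colored by family, with the median over all animals as a bar and the number of animals at 0 printed below the dotted line. GRIN1, SLC17A6 and GRIA1 stand highest, while GRIA2, GRIA3, GRIK2, GRM4, HOMER1, HOMER3 and DLG1 are at 0 in at least 15 animals.

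Among AMPA receptor subunits, GRIA1 (GluA1) took 82.2% ± 9.80 (SD, n = 28) of the per-kb signal and GRIA4 (GluA4) 16.2% ± 8.36. GRIA1 had 66.9 CPM in the lowest, 123 in the median and 246 in the highest animal. GRIA2 (GluA2), the subunit that makes AMPA receptors impermeable to calcium, took 0.437% and GRIA3 (GluA3) 1.20%. The GRIA2 transcript was at 0 in 20 animals, and the 8 others were Control 3 (37 counts), Control 4 (69), Control 6 (86), Control 8 (8), Binge 2 (8), Very Heavy 5 (100), Very Heavy 8 (4) and Very Heavy 9 (98). GRIA3 had counts in 3 of 11 controls and 10 of 17 drinkers, with the highest value, 14.4 CPM, in Very Heavy 2. The AMPA shares hold for the listed transcripts only, since counts that Salmon gave to other GRIA2 or GRIA3 transcripts are not among the values used here.

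Within the NMDA family, GRIN1 held 90.8% ± 1.402 (SD, n = 28) of the per-kb signal, the smallest spread of any family's leading member. In CPM, GRIN1 was 157 in the lowest animal, 271 in the median and 417 in the highest. Among the 4 GluN2 subunits, GRIN2D, whose receptors close slowly and resist magnesium block, took 43.2% ± 6.33, GRIN2A 25.8% ± 8.78, GRIN2B 19.0% ± 4.99 and GRIN2C 12.0% ± 5.89. GRIN2D lay between 7.80 and 15.7 CPM with a median of 11.1, and GRIN2B between 1.51 and 9.92 CPM with a median of 5.61. GRIN3A (GluN3A), a subunit that lowers calcium permeability, had a median of 2.69 CPM per kb, close to the 2.76 of GRIN2D.

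Of the kainate receptor subunits, GRIK5, a high-affinity subunit that needs a GRIK1 to GRIK3 partner, took 64.8% ± 3.93 (SD, n = 28), followed by GRIK1 (15.1%), GRIK4 (10.4%) and GRIK3 (9.70%). GRID1 (GluD1), which links synapses through cerebellin and neurexin, was the most even member after GRIK5.

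Among metabotropic receptors, GRM3, a group II receptor also made by astrocytes, took 34.4% ± 6.80 (SD, n = 28) and the group I receptor GRM5 31.8% ± 5.41, a difference within their spread. The group III receptors GRM8 and GRM7 took 16.4% and 14.4%, GRM2 took 2.82% and GRM4 0.200%. GRM3 ran from 13.9 to 40.5 CPM (median 23.4) and GRM5 from 18.8 to 41.3 CPM (median 32.4). GRM4 was at 0 in 17 animals and GRM2 in 3.

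SLC17A6 (VGLUT2), the vesicular transporter of midbrain glutamate neurons, took 91.3% ± 7.34 (SD, n = 28) of the vesicular transporter signal, SLC17A8 (VGLUT3) 5.95% and SLC17A7 (VGLUT1), the transporter of cortical neurons, 2.70%. SLC17A6 was 29.7 CPM in the lowest animal, 133 in the median and 371 in the highest. SLC17A8 was at 0 in 6 animals, all of them drinkers, and had counts in all 11 controls, yet drinkers and controls overlapped and their difference had an SE larger than itself (log2 fold change −0.65 ± 0.84 (SE), adjusted p = 1, edgeR quasi-likelihood test with Benjamini-Hochberg adjustment). SLC1A1 (EAAC1), the neuronal glutamate uptake carrier, was at 0 in 7 animals.

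For the scaffolds, SHANK1 took 64.4% ± 6.31 (SD, n = 28), SHANK3 26.7% and SHANK2 8.89% of the SHANK signal, which anchors the deep layer of the density. The membrane-associated guanylate kinases were more even, with DLG3 (SAP102) at 39.1% ± 16.3, DLG4 (PSD-95) at 32.8% and DLG2 (PSD-93) at 28.1%. HOMER2 took 89.7% ± 21.9 (SD, n = 23) of the HOMER signal in the 23 animals where the family had counts. HOMER1 was at 0 in 21 animals and HOMER3 in 24, with counts in Control 3 (39), Control 10 (19), Heavy 1 (27) and Heavy 2 (7). The TARPs, which traffic AMPA receptors to the synapse, were shared between CACNG2 (stargazin, 48.4% ± 9.46) and CACNG3 (46.7% ± 9.87), with CACNG8 at 4.89%. CAMK2A, the alpha subunit of the kinase that phosphorylates AMPA receptors during potentiation, took 85.1% ± 9.44 against CAMK2B.

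Members differed in base composition, and several comparisons below were also fitted with each library's trend on it removed. Over the RefSeq transcript, GRIN2D (68.8% G and C), SHANK3 (66.9%), SHANK1 (66.0%), GRIN1 (65.4%), HOMER3 (65.0%), CACNG8 (62.6%) and GRIK5 (62.6%) were the richest named here. GRIA2 (38.8%) and SLC17A6 (40.0%) were the poorest, and GRIN2A (44.4%) and GRM8 (47.0%) lay between. The contrast is shown by the central 60 bases of the longest coding exon of 5 members, read on the coding strand from Mmul_10 with RefSeq exons, with G and C in capitals. All 5 genes are on the minus strand, and each window is coding sequence: SHANK1 chr19:50580654-50580713 (78.3% G and C), SHANK3 chr10:759978-760037 (71.7%), GRIK5 chr19:41145449-41145508 (51 of 60 bases), GRM8 chr3:153002895-153002954 (45.0%) and GRIN2A chr20:9775349-9775408 (53.3%).
SHANK1: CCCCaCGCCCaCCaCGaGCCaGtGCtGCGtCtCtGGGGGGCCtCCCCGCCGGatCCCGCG
SHANK3: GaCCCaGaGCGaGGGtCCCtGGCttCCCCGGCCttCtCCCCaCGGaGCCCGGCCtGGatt
GRIK5: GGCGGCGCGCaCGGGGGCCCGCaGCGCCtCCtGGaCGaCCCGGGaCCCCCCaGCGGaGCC
GRM8: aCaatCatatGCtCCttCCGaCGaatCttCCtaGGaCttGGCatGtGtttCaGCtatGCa
GRIN2A: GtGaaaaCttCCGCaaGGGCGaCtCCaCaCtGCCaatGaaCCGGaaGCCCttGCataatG
Capitals make up 47, 43 and 51 of the 60 bases in the first 3 windows and 27 and 32 in the last 2.

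Drinkers and controls were compared first, to ask whether glutamate synapse transcripts differed after long-term drinking. None of the 39 tested members passed an adjusted p of 0.05 (edgeR quasi-likelihood test with Benjamini-Hochberg adjustment, lowest adjusted p = 0.796), and none of the 13769 transcripts did. At an unadjusted p under 0.05 there was 1 member, GRM8, against 4.57% of all tested transcripts (629). With cohort as a covariate there were 5, against 7.06%: GRM8 (log2 fold change 0.42 ± 0.17, SE), SHANK3 (−0.43 ± 0.19), SHANK1 (−0.30 ± 0.14), GRIK5 (−0.13 ± 0.06) and GRIA2, none past an adjusted p of 0.05 (lowest 0.574, edgeR). In the first fit, which had no cohort term, SHANK3 had −0.25, SHANK1 −0.15 and GRIK5 −0.09, each with an unadjusted p above 0.05 (edgeR). With each library's trend on G and C content removed, also without cohort, they had −0.08, −0.0014 and 0.05. Each again had an unadjusted p above 0.05 (edgeR), and GRM8 had 0.49. Removal of the trend was an alternative chosen after seeing the data. The median log2 fold change was −0.03 over the tested members and 0.00 over all tested transcripts. In the 25 members with counts in every animal it ran from −0.27 to 0.44, with a median SE of 0.17.

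GRM8 (mGlu8), a presynaptic group III receptor that lowers glutamate release (transcript ENSMMUT00000021363.4, Mmul_10 chr3:152900015-153709715, minus strand), had the largest difference among those 25. It was 5.96 CPM in the lowest, 9.99 in the median and 14.1 in the highest of 11 controls, and 8.10, 13.0 and 24.5 CPM in the 17 drinkers. The median of the drinkers lay near the top of the control range, but the groups overlapped over most of it. The log2 fold change was 0.44 ± 0.16 (SE, unadjusted p = 0.0108, adjusted p = 0.796, edgeR quasi-likelihood test with Benjamini-Hochberg adjustment). Both larger categories sat at the same level, with medians of 13.0 CPM in Heavy and 13.3 CPM in Very Heavy animals. Within cohorts it was 0.57 ± 0.21 in cohort 1 and 0.16 ± 0.28 in cohort 2. GRM7, the other group III receptor with counts in every animal, had a log2 fold change of 0.34 ± 0.17 (unadjusted p = 0.0622 in the same edgeR test).

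**Figure D2:**
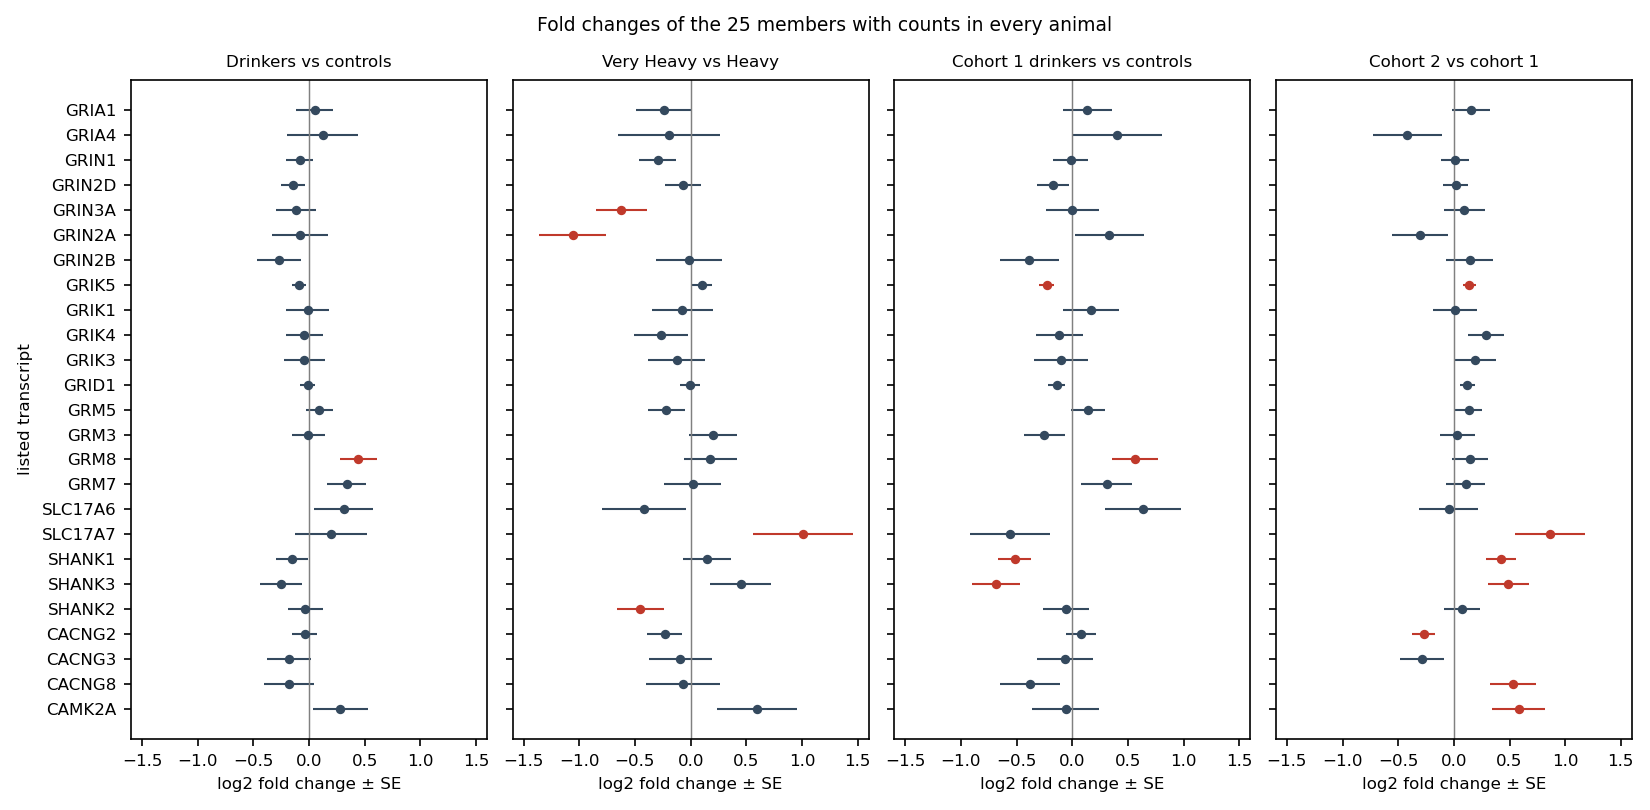
Log2 fold change (points) with its standard error (bars) for each of the 25 members with counts in all animals, in 4 comparisons, with red for an unadjusted p under 0.05 and a grey line at 0. Between drinkers and controls the members lie between −0.27 and 0.44, and the widest spread, −1.06 to 1.01, is between Very Heavy and Heavy drinkers.

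For the most abundant members no difference between drinkers and controls was detected. GRIN1 was 179, 298 and 348 CPM (lowest, median and highest) in controls and 157, 251 and 417 CPM in drinkers, with a log2 fold change of −0.08 ± 0.12 (SE). GRIA1 was 76.3, 122 and 175 CPM in controls and 66.9, 127 and 246 CPM in drinkers (0.05 ± 0.17). The range of the drinkers extended past that of the controls on both sides for these 2 subunits. SLC17A6 was 29.7, 123 and 218 CPM in controls and 61.5, 135 and 371 CPM in drinkers (0.31 ± 0.27), and CAMK2A had 0.28 ± 0.25. An SE of this size leaves differences of the order of the SE undetectable in these 28 animals. Larger ones can also fail to pass, as GRM8 did at 0.44 ± 0.16.

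Drinking categories were then set against the same 11 controls, so these comparisons share their controls. Between Very Heavy drinkers and controls no member passed (lowest adjusted p = 0.785, edgeR quasi-likelihood test with Benjamini-Hochberg adjustment). At an unadjusted p under 0.05 there were 3 (GRIN2A, GRM8 and HOMER3), against 4.47% of all transcripts. GRM8 had a log2 fold change of 0.53 ± 0.19 and GRIN2A −0.53 ± 0.26. For Heavy drinkers against controls the lowest adjusted p of a member was 0.689 in the edgeR test, and 2 members (SHANK3 and GRIA2) reached an unadjusted p under 0.05, against 6.77%. SHANK3, a scaffold of the deep postsynaptic density, had −0.59 ± 0.27, and GRIK5 −0.17 ± 0.09. With the trend on G and C content removed, SHANK3 had −0.35 (unadjusted p = 0.128, edgeR) and GRIK5 0.0052, and GRIN2A in Very Heavy animals had −0.48 (unadjusted p = 0.0814, edgeR). GRIA2 was at 0 in all 5 Heavy animals and in 7 of 11 controls, so no fold is given for it. The 3 Low and Binge animals had no member at an unadjusted p under 0.05, against 4.84%, with a lowest adjusted p of 0.93 in the edgeR test. GRM7 had 0.50 ± 0.29 there and 0.20 without Low 1. GRM4 and HOMER3, which with GRM7 had the lowest p here, were at 0 in all 3 of these animals. The test for any difference among the groups had 3 such members (GRIN2A, GRIN3A and HOMER3) against 5.67%.

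Very Heavy against Heavy drinkers asked whether the heaviest intake differed from the next category. No member and no other transcript passed (lowest adjusted p of a member = 0.635, edgeR quasi-likelihood test with Benjamini-Hochberg adjustment), while 7 of 39 members (17.9%) had an unadjusted p under 0.05 against 6.51% of all transcripts. Lower in Very Heavy were 5 members, GRIN2A, GRIN3A, DLG2, SHANK2 and HOMER3, against 2.55% of all transcripts in that direction, and higher were 2, SLC17A7 and GRIA2, against 3.97%. The 5 lower members include 2 NMDA receptor subunits and 3 scaffolds. Of 37 other glutamate synapse genes tested, 1 (2.7%) had an unadjusted p under 0.05 in this comparison.

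GRIN2A (GluN2A), the subunit that gives NMDA receptors fast decay (transcript ENSMMUT00000014163.4, chr20:9764785-10195975, minus strand), had 12.1, 16.9, 11.8, 5.93 and 11.4 CPM in the 5 Heavy animals. In the 9 Very Heavy animals it was 1.75 CPM at the lowest, 4.68 at the median and 9.53 at the highest, and in the 11 controls 3.76, 7.27 and 13.9 CPM. In 4 of 5 Heavy animals the level was above every Very Heavy animal, Heavy 4 lay inside the Very Heavy range, and the controls spanned most of both. The log2 fold change was −1.06 ± 0.31 (SE, unadjusted p = 0.00175, adjusted p = 0.635, edgeR quasi-likelihood test with Benjamini-Hochberg adjustment). It was −1.03 ± 0.33 with cohort as a covariate and −0.88 with the pan-neuronal marker score as one. Its share of the GluN2 signal was 36.0% ± 9.46 (SD, n = 5) in Heavy, 20.9% ± 8.34 (SD, n = 9) in Very Heavy and 25.5% ± 6.23 (SD, n = 11) in control animals.

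**Figure D3:**
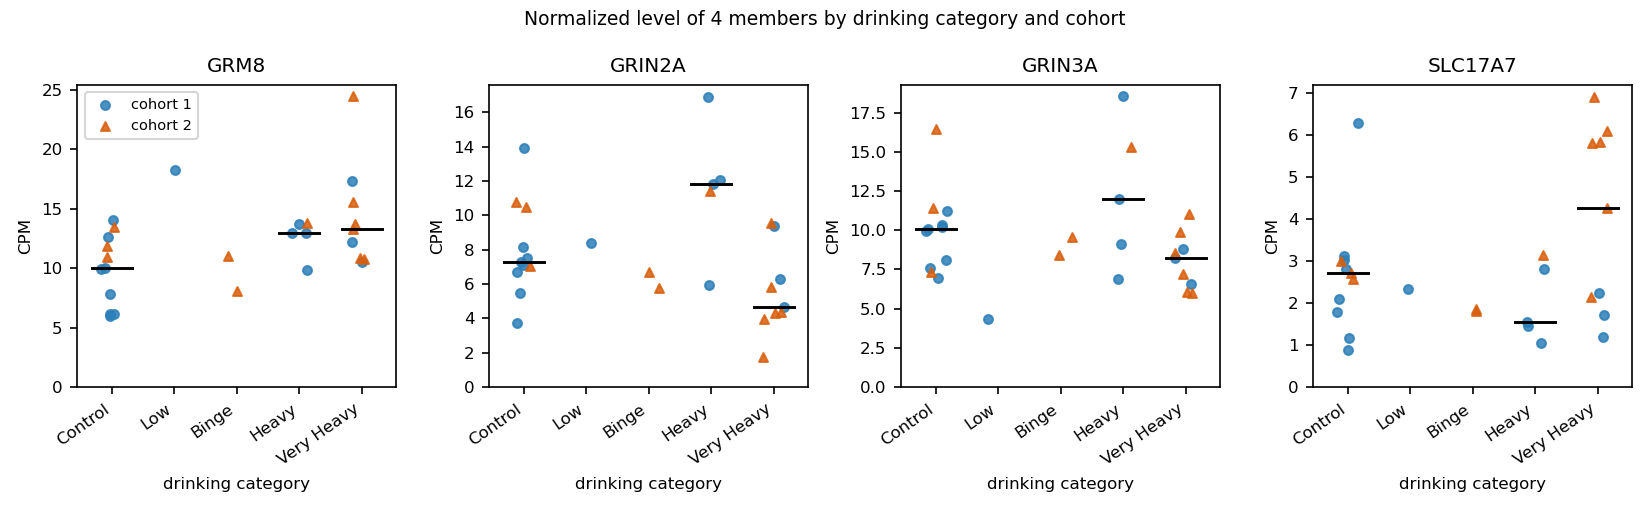
CPM of GRM8, GRIN2A, GRIN3A and SLC17A7 in each animal by drinking category, with circles for cohort 1, triangles for cohort 2 and a bar at the median of categories of more than 2 animals. For GRIN2A, 4 of 5 Heavy animals lie above all 9 Very Heavy animals, and for GRM8 drinkers and controls overlap.

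GRIN3A had 18.6, 12.0, 6.89, 9.15 and 15.3 CPM in Heavy animals and 5.97, 8.23 and 11.1 CPM (lowest, median and highest) in Very Heavy animals, with a log2 fold change of −0.62 ± 0.23 (SE, edgeR adjusted p = 0.635). Of the Heavy animals 3 of 5 were above the Very Heavy range, and without Heavy 1 the value was −0.44. DLG2, named after its values were seen, had 12.7 to 23.0 CPM in Heavy and 0 to 12.9 CPM in Very Heavy animals (−1.07 ± 0.51, edgeR adjusted p = 0.75), and 1 Very Heavy animal reached into the Heavy range. SHANK2 had 10.9, 14.8 and 26.6 CPM in Heavy and 8.88, 11.6 and 21.4 CPM in Very Heavy animals (−0.45 ± 0.21, edgeR adjusted p = 0.74), with wide overlap. HOMER3 was at 0 in all 9 Very Heavy and in 3 of 5 Heavy animals.

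A pan-neuronal marker score was also set beside this comparison. It had a median of 0.430 in Heavy (range −0.114 to 1.39) and −0.131 in Very Heavy animals (−0.880 to 0.995). These ranges overlapped, and the difference in score was not tested. With the score as a covariate 1 member, GRIN2A, had an unadjusted p under 0.05 (0.00948, edgeR) instead of 7. All transcripts had 5.63% in that fit. Under this covariate the log2 fold change of DLG2 was −1.16 ± 0.59 (SE), of GRIN3A −0.50 ± 0.25, of SHANK2 −0.29 ± 0.22 and of SLC17A7 0.65 ± 0.47, so that directions held, and DLG2 lost its call with a value no smaller. The score is the mean over 6 markers, of which SYT1 was at 0 in 24 animals and ENO2 in 11. The markers of cortical excitatory neurons, a cell type a VTA punch should lack, summed to 14.3, 24.6 and 49.4 CPM in Heavy and to 17.8, 63.1 and 86.4 CPM in Very Heavy animals. SLC17A7, which those neurons also express, had a log2 fold change of 1.01 ± 0.45 (SE, edgeR adjusted p = 0.722), but within cohort 1 its mean was 1.71 CPM in both categories, and with cohort as a covariate it was 0.65 ± 0.46. The 6 Very Heavy animals of cohort 2 had 2.15, 5.81 and 6.89 CPM. The part of these markers in the member values was not tested beyond these fits.

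The cohorts were compared next, adjusting for drinking, because several members split along this line. No member passed (lowest adjusted p = 0.208, edgeR quasi-likelihood test with Benjamini-Hochberg adjustment), and 6 transcripts in all did (0.0436%). At an unadjusted p under 0.05 there were 8 of 39 members (20.5%), against 9.8% of all transcripts. Of these 7 were higher in cohort 2 (5.53% of all transcripts) and 1 was lower (4.27%). Higher in cohort 2 were SHANK1 (log2 fold change 0.42 ± 0.13, SE), SHANK3 (0.49 ± 0.18), SLC17A7 (0.86 ± 0.32), CACNG8 (0.53 ± 0.21), CAMK2A (0.58 ± 0.24), GRIK5 and GRIA2. CACNG2 was lower (−0.27 ± 0.10), at 18.7, 32.9 and 44.5 CPM in cohort 1 and 19.6, 29.2 and 34.1 CPM in cohort 2. CAMK2A had a median of 53.6 CPM in cohort 1 and 83.7 CPM in cohort 2, with overlapping ranges. SLC17A7 had 0.874, 1.94 and 6.27 CPM in cohort 1 and 1.82, 3.06 and 6.89 CPM in cohort 2. With the trend on G and C content removed, the members at an unadjusted p under 0.05 were 4 (10.3%: CACNG2, CACNG3, SLC17A7 and GRIA2) against 21% of all transcripts. SHANK1 then had 0.22, SHANK3 0.30, CAMK2A 0.41, CACNG8 0.36 and GRIK5 −0.05, each with an unadjusted p above 0.05. CACNG2 moved the other way, to −0.43 ± 0.12, and passed in that fit (adjusted p = 0.0274, edgeR). The median over tested members was 0.11 on the log2 scale, against 0.02 over all tested transcripts.

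Within cohort 1, 8 drinkers and 8 controls were compared. Here 132 transcripts passed (0.959%) but no member did (lowest adjusted p = 0.0901, edgeR quasi-likelihood test with Benjamini-Hochberg adjustment). At an unadjusted p under 0.05 there were 5 of 39 members (12.8%), against 14.7% of all transcripts, so the members stood no further apart than the rest. GRM8 was the 1 member higher in drinkers (6.55% of all transcripts), and SHANK1, SHANK3, GRIK5 and GRIA2 were the 4 lower (8.14%).

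SHANK1 (transcript ENSMMUT00000013077.4, chr19:50572206-50631487, minus strand) had 99.1, 131 and 196 CPM (lowest, median and highest) in cohort 1 controls and 70.2, 88.7 and 131 CPM in cohort 1 drinkers. The highest drinker lay just below the control median, and the mean was 138 ± 31.9 (SD, n = 8) CPM in controls and 96.1 ± 23.5 (SD, n = 8) CPM in drinkers. The log2 fold change was −0.52 ± 0.15 (SE, edgeR adjusted p = 0.0901). DESeq2 gave SHANK1 an adjusted p of 0.0392, and over the alternatives tried it ran from 0.0392 to 0.643. In cohort 2 the 3 controls had 115 to 150 CPM and the 9 drinkers 96.0, 152 and 207 CPM, so that drinkers were not lower there. The difference between the cohorts' effects was 0.63 ± 0.26 (SE, edgeR adjusted p = 0.405).

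SHANK3 had 22.2, 43.7 and 81.1 CPM in cohort 1 controls and 23.2, 27.1 and 42.3 CPM in cohort 1 drinkers, a log2 fold change of −0.69 ± 0.21 (SE, edgeR adjusted p = 0.112). All 8 drinkers lay below the control median. In cohort 2, SHANK3 had 46.4 to 47.6 CPM in controls and 32.5, 52.2 and 76.2 CPM in drinkers. GRIK5 had 66.4, 70.0 and 83.5 CPM in cohort 1 controls and 52.4, 60.7 and 72.6 CPM in cohort 1 drinkers (−0.23 ± 0.07, edgeR adjusted p = 0.0901), and 66.6 to 73.8 and 66.5, 72.7 and 82.9 CPM in the controls and drinkers of cohort 2. For both members the drinkers of cohort 1 were the lowest of the 4 sets by median.

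These 3 members are among the richest in G and C shown in the windows above, and a library-wide trend with base composition moved with the same contrast. The slope of a library's log2 deviation on G and C content, per 10 percentage points, was −0.028, 0.073 and 0.170 in cohort 1 controls and −0.109, −0.074 and 0.019 in cohort 1 drinkers, and it was −0.075, 0.017 and 0.086 in cohort 2 drinkers. The 3 cohort 2 controls had slopes of −0.066, −0.040 and 0.029, and their SHANK1, SHANK3 and GRIK5 levels were above the cohort 1 drinkers' medians. Whether the slopes account for the levels of these members was not tested. Across the 25 members with counts in all animals, the cohort 1 log2 fold change and G and C content had r = −0.749, a description over genes that share the same 16 libraries. Over all transcripts with a mean of at least 20 counts and known G and C content, r was −0.187. With the trend removed from each library, SHANK1 in cohort 1 had −0.17 ± 0.14, SHANK3 −0.31 and GRIK5 0.07, and members with an unadjusted p under 0.05 were GRM8 and GRIA2 alone (5.13%), against 15.8% of all transcripts. Whether the trend arose in the tissue or in library preparation cannot be told apart here.

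**Figure D4:**
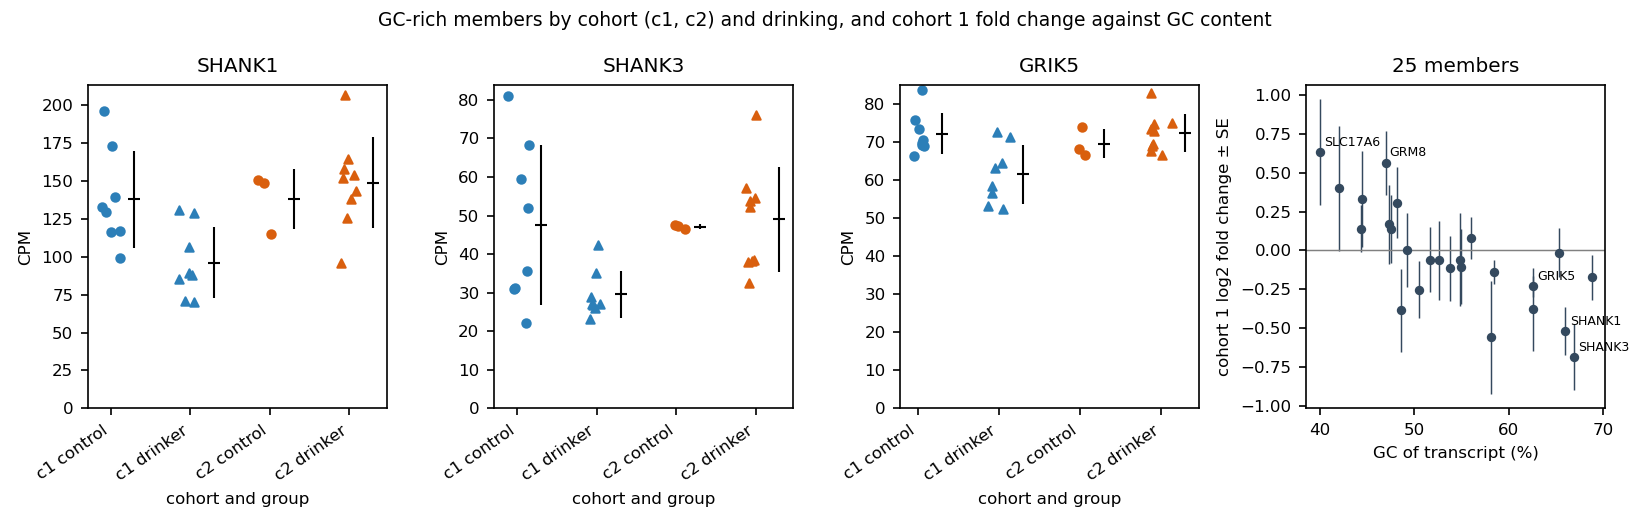
CPM of SHANK1, SHANK3 and GRIK5 in each animal by cohort (c1, c2) and group, with mean ± SD beside the points, and at the right the cohort 1 log2 fold change ± SE of 25 members against the G and C percentage of the transcript. By median the drinkers of cohort 1 are lowest for all 3 members, with overlap between sets. At the right the points run downward (r = −0.749), with SHANK1 and SHANK3 at the lower end.

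Within cohort 2, 9 drinkers and 3 controls were compared, and no transcript passed. At an unadjusted p under 0.05 there were 2 members (HOMER3, at 0 in all 9 drinkers, and GRIA2, at 0 in all 3 controls) against 2% of all transcripts (276), and the lowest adjusted p of a member was 1 in the edgeR test. The test of whether drinking effects differed between cohorts had 7 of 39 members (17.9%) at an unadjusted p under 0.05 against 9.62%, none with an adjusted p under 0.05 (lowest 0.282), and 2 transcripts in all passed (0.0145%). These were GRIA2, HOMER1, HOMER3, GRIK5, SHANK1, SHANK3 and GRM3, the first 3 of them at 0 in 20 or more animals. GRM3 had a difference of 0.68 ± 0.31, with medians of 24.5 and 22.0 CPM in controls and drinkers of cohort 1 and of 22.5 and 24.1 CPM in those of cohort 2. GRIK5 had a difference of 0.29 ± 0.11 (SE, edgeR adjusted p = 0.375). With the base composition trend removed, 3 members (7.69%: HOMER1, HOMER3 and GRIA2) had an unadjusted p under 0.05, against 8.66% of all transcripts. GRIK5 then had −0.01, SHANK1 0.30, SHANK3 0.40 and GRM3 0.57 (edgeR unadjusted p = 0.945, 0.216, 0.241 and 0.0855).

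Because dopamine neuron content varied between punches, each member was also fitted against a score, the mean z-score of 10 dopamine neuron markers, over all 28 animals. No member passed (lowest adjusted p = 0.077 for HOMER3, which was at 0 in 24 animals, edgeR quasi-likelihood test with Benjamini-Hochberg adjustment), and 76 transcripts did (0.552%). At an unadjusted p under 0.05 there were 6 of 39 members (15.4%), GRIA4, GRIK3, CACNG3, GRM3, HOMER3 and CACNG2, against 6.31% of all transcripts.

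GRIA4 (GluA4), a subunit with fast kinetics typical of interneurons and brainstem neurons (transcript ENSMMUT00000006906.4, chr14:98876001-99249348, plus strand), had a slope of −0.73 ± 0.20 (SE) log2 units per unit of score (edgeR adjusted p = 0.106, 0.0132 to 0.999 over the alternatives). Its lowest animals were Very Heavy 3 (2.14 CPM, score 0.98), Control 5 (5.52 CPM, 1.03), Heavy 2 (11.5 CPM, 0.63) and Control 8 (12.1 CPM, 0.68), all dopamine-rich punches. Its highest were Very Heavy 2 (59.0 CPM, −0.10), Very Heavy 1 (46.1 CPM), Heavy 3 (39.8 CPM, −1.05) and Control 7 (39.0 CPM, −1.06). The slope was −1.01 ± 0.28 in cohort 1 and −0.14 ± 0.16 in cohort 2, a difference of 0.87 ± 0.39 (edgeR unadjusted p = 0.0319, adjusted p = 0.859).

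CACNG3 (TARP gamma-3, transcript ENSMMUT00000019038.4, chr20:22598852-22707230, plus strand) ran the other way, with a slope of 0.41 ± 0.11 (SE, edgeR adjusted p = 0.115). It was lowest in Heavy 3 (12.5 CPM, score −1.05) and Control 2 (14.3 CPM, −0.92) and highest in Control 3 (59.0 CPM, 1.41), Heavy 1 (50.5 CPM) and Control 5 (46.6 CPM). The slope was 0.53 ± 0.12 in cohort 1 (edgeR adjusted p = 0.0684) and 0.09 ± 0.19 in cohort 2, and the difference of −0.45 ± 0.23 did not pass (adjusted p = 1). The slope rested in part on single animals: it was 0.35 without Control 3 (edgeR adjusted p = 0.488), and without Binge 2 its adjusted p was 0.0482, within a range of 0.0482 to 0.999 over the alternatives.

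**Figure D5:**
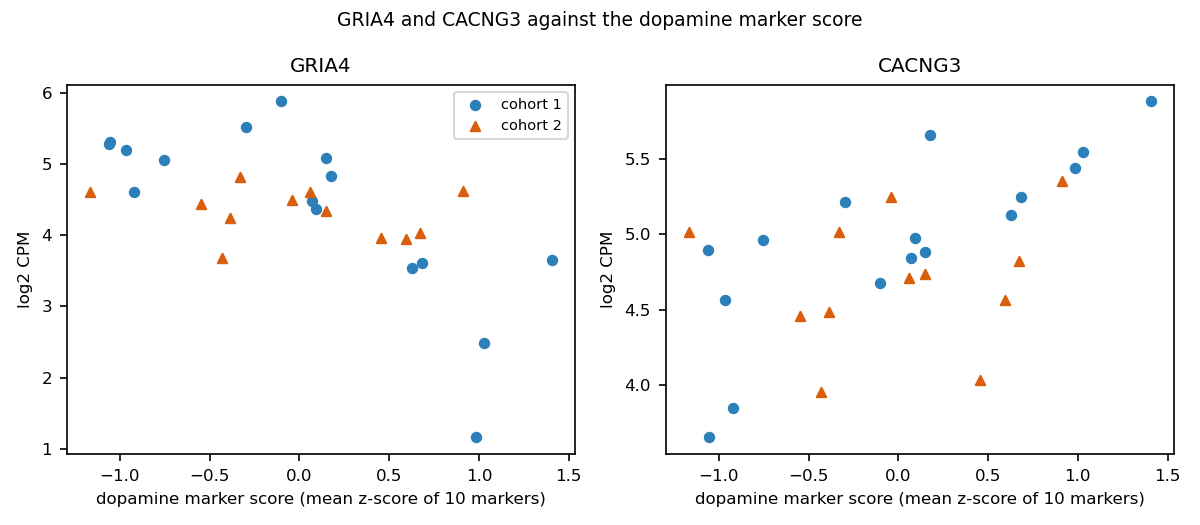
Log2 CPM of GRIA4 and CACNG3 in each animal against the dopamine neuron marker score (mean z-score of 10 markers), with circles for cohort 1 and triangles for cohort 2. GRIA4 is lowest in animals of high score, CACNG3 is lowest in animals of low score, and the cohort 2 points are flatter (slopes of −0.14 and 0.09).

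Of 43 other genes of the glutamate synapse (other receptors, transporters, auxiliary subunits, DLGAP scaffolds and neuronal pentraxins), 37 were tested and none passed an adjusted p of 0.05 in any of these comparisons (edgeR quasi-likelihood test with Benjamini-Hochberg adjustment). Between drinkers and controls none had an unadjusted p under 0.05, and for Low and Binge animals against controls 2 did (PICK1 and SLC1A3, 5.41%, against 4.84% of all transcripts). In the cohort comparison 6 of 37 (16.2%, against 9.8% of all transcripts) did, all higher in cohort 2 (DLGAP3, SLC1A3, SHISA9, DLGAP4, IQSEC2 and CACNG4). Within cohort 1, 4 of 37 (10.8%, below the 14.7% of all transcripts) did, all lower in drinkers (PICK1, DLGAP3, DLGAP4 and IQSEC2, lowest adjusted p = 0.0829). Against the dopamine score 6 of 37 (16.2%, against 6.31% of all transcripts) had an unadjusted p under 0.05, 4 with a positive and 2 with a negative slope (NPTX1, NPTX2, DLGAP3, GRIP2, GSG1L and CNIH2). Between the drinkers and controls of cohort 2 there was 1 (SLC1A6, 2.7%, against 2% of all transcripts). None did for Very Heavy or Heavy drinkers against controls, for any category, or for the difference between cohorts.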

How the data were processed

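VTA RNA was sequenced from 28 animals with 1 library each (Nugen Universal Plus mRNA kit). The authors trimmed reads with Trim Galore 0.6.7, used Salmon 1.9.0 with Mmul_10 for quantification, and deposited 1 table of unnormalized estimated counts with 1 transcript per gene symbol; how that transcript was chosen is not given in the sources used here. The submitters' processing notes also name DESeq2 1.36.0. Estimated counts were rounded to whole numbers, the 1 entry without a symbol (1.16e-05% of counts) was left out, and a transcript was tested where 3 animals or more had 5 counts or more.

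Groups came from the sample labels and the cohort of each drinker from the study's source data, which for controls gives it only through the measurements they appear in; every cohort comparison rests on this placement. Counts were fitted with edgeR 4.0.16 (TMM normalization, quasi-likelihood F test, Benjamini-Hochberg adjustment over all tested transcripts, threshold 0.05) in R 4.3.3, and the standard error is the size of the log2 fold change divided by the square root of F. The test was first run on simulated data. CPM values use TMM-scaled library sizes. Shares are of the CPM per kb of coding sequence within a family, with coding lengths, G and C content and coordinates from RefSeq on Mmul_10, which had G and C content for 13271 of the 13769 tested transcripts (96.4%). The most similar pair of libraries had equal counts for 14.4% of tested transcripts, and each library was kept as 1 animal.

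Members and gene lists were chosen with earlier results of these data known. Members named with values are the 3 with the lowest unadjusted p in each comparison, those highest and lowest in level in each family, and those at 0 in 3 or more animals or failing the filter. All others given with values, such as DLG2, SHANK2, CAMK2A, CACNG2 and CACNG8, were named after their values were seen. The alternatives were DESeq2 1.42.0, limma 3.58.1 (voom), DESeq2 size factors, no filter, a stricter filter, cohort or marker scores as covariates, each cohort alone, each animal of the smaller groups left out, and other length scalings for shares. Removal of each library's trend on G and C content, the test of the score's slope between cohorts and the leave-one-out fits of the dopamine score were added after seeing the data. The name of 1 of the other glutamate synapse genes is not reported here.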

Additional observations from a re-analysis of the deposited data

Results flagged for a closer look

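Within drinking categories, 9 of 76 sets of values tested by Dixon's criterion held 1 animal that stood apart from the others of its category; chance gives about 1 in 20. That rate does not hold for the 2 sets where all other animals were at 0 (GRM4 and HOMER1 in Heavy drinkers), since any count there stands apart. It need not hold either where most animals were at 0 (HOMER3 in Heavy, GRIA3 and GRM4 in Very Heavy drinkers). The count of 9 sets is therefore not read against it. Among Heavy drinkers, Heavy 3 had the lowest GRM8 level at 9.84 CPM, below the 12.9 to 13.8 CPM of the other 4, and Heavy 1 had the highest DLG2 level at 23.0 CPM, above 12.7 to 14.7 CPM. Both belong to members described for drinking category, and the DLG2 value widens the gap between Heavy and Very Heavy animals.

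Among Very Heavy drinkers, Very Heavy 5 had 24.5 CPM of GRM8 against 10.5 to 17.3 CPM in the other 8. Very Heavy 2 had 14.4 CPM of GRIA3 against 0 to 2.23 CPM, and 2.08 CPM of GRM4 against 0 to 0.210 CPM. The same animal had the highest GRIA4 level of all 28, 59.0 CPM. Very Heavy 6 had 32.3 CPM of CAMK2B against 13.1 to 22.1 CPM.

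The other 3 sets hold transcripts that were at 0 in most Heavy animals: GRM4 (0.134 CPM in Heavy 5, 0 in the rest), HOMER1 (0.227 CPM in Heavy 3, 0 in the rest) and HOMER3 (1.10 CPM in Heavy 1, at most 0.280 CPM in the rest).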

How the results depend on the processing

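The count of members past an adjusted p of 0.05, 0 in each comparison, stayed at 0 in 148 of 156 alternatives. It was 1 in cohort 1 with DESeq2 (SHANK1) and 1 between cohorts with the G and C trend removed (CACNG2, −0.43 ± 0.12, adjusted p = 0.0274, edgeR). For the dopamine score it was 2 without a filter and 2 with the pan-neuronal score as a covariate (GRIA4 and HOMER3), 1 with DESeq2 (GRIA4), 1 with cohort as a covariate (HOMER3), and 0 to 1 when each animal was left out (CACNG3 without Binge 2, HOMER3 without Heavy 1). Over all transcripts, removal of the trend took calls between cohorts from 6 to 846 and calls in cohort 1 from 132 to 47. Removing it also reversed GRIK5, to 0.0052 for Heavy drinkers against controls, 0.066 in cohort 1 and −0.0083 for the difference between cohorts, and turned its sign for all drinkers (0.05), Very Heavy (0.04) and Low and Binge animals (0.15) against controls and between cohorts (−0.05). Of 264 alternative fold changes of named members, 256 kept direction and side of the threshold, and 5 newly passed it.

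With RefSeq transcript length in place of coding length, the share of GRIN1 was 92.8%, of GRIN2D among GluN2 57.7%, of GRIK5 71.5% and of CAMK2A 68.0%; without length scaling GRIN1 took 87.9%. The other 17 alternative shares moved by less than 1 SD.

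No paired analysis was possible because the replicate numbers were assigned in accession order, and which drinker each caloric control was yoked to is not given in the sources used here. With 3 controls in cohort 2 and 5 Heavy animals, differences near their standard error were not detectable. Differences well above it also did not pass, such as GRIN2A between Very Heavy and Heavy animals (−1.06 ± 0.31). Values rest on 1 transcript per gene, and cohort and category were unevenly crossed.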
